A study of Mus musculus with 12 samples.

Results

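Chemokines and their receptors were followed as 57 genes of the 25171 loci in the count table, taken by symbol as every gene named Ccl, Cxcl, Ccr or Cxcr with a number, Cx3cl1, Cx3cr1, Xcl1 or Xcr1. The set held 38 ligands and 19 receptors. Of these, 54 reached 3 counts in at least 1 heart and 26 did so in all 12 hearts, namely 19 ligands and 7 receptors.

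Chemokines are small secreted proteins that bind G protein-coupled receptors on leukocytes and guide them along a gradient. They are grouped by the spacing of their first cysteines into CC, CXC, CX3C and XC ligands, and the receptors take their names from the ligand class they bind. In the heart, Ccr2 ligands are known for drawing monocytes from the blood after injury, Cxcr2 ligands for drawing neutrophils, Cxcr3 ligands for drawing activated T and NK cells, and Cxcl12 for its steady production by stromal and vascular cells.

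Bulk RNA-seq was performed on 12 mouse hearts, 3 in each of 4 groups. All groups carried a conditional NOTCH2NLC-(GGC)98 allele at the Rosa26 site, silenced by a loxP-flanked stop. EIIa-tg hearts also carried the ubiquitous E2a-Cre and EIIa-ctl hearts were Cre-negative littermates, both taken at postnatal day 30 (P30). Myh6-tg and Myh6-ctl mice were labelled as carriers of the inducible, cardiomyocyte-driven Myh6-creERT2, received 3 injections from P60 onwards and were sampled at P90. The injections held tamoxifen at 75 mg/kg in Myh6-tg and corn oil in Myh6-ctl, so that tamoxifen and the transgene cannot be told apart in this pair. The models also differ in age, in the cells that express the repeat and in the time since expression began, and these cannot be told apart in a comparison between them. The contrasts ask how repeat expression changed the chemokine system in each model and whether the changes ran the same way.

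The libraries held 38343106 to 50969834 counts, of which 13718 to 30871 fell on the chemokine family. Levels are given as CPM, counts scaled to a common library size by TMM, a normalisation on the bulk of genes. Cardiomyocyte markers were abundant in every heart, with a sum of 9260 to 50712 CPM over 8 genes, although the extraction protocol in the labels names brain. Esr1, whose ligand-binding domain is part of the CreERT2 protein, was at 1031 to 2331 CPM in Myh6-ctl and at 1.00 to 2.52 CPM in the hearts labelled Myh6-tg, against 0.408 to 1.23 CPM in the EIIa hearts, although both Myh6 groups are labelled as carriers. Directions in that model therefore refer to the hearts as labelled, and whether the labels were exchanged was not tested. Whether both Myh6 groups carried CreERT2 was not tested either. A difference in CreERT2 between these groups cannot be told apart from tamoxifen and the transgene. Mitochondrial genes took 31.8 to 38.3% of counts in Myh6-ctl against 15.5 to 18.6% in Myh6-tg, and 34.2 to 36.7% in EIIa-ctl against 28.5 to 32.3% in EIIa-tg, so that this share was lower in hearts labelled transgenic in both models. Summed counts of 4 Y-linked genes were 4224 to 7307 in replicate 1 of every group and at most 2 in every other heart. A value that stands out in replicate 1 of a group cannot be told apart from this difference. In bulk tissue, fewer cells of a type and less RNA per cell cannot be told apart.

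The coding sequence was searched from codon 19 onwards for a cysteine pair at the spacing of a CC, CXC or CX3C ligand. Such a pair was found in 35 of the 38 ligands. That of Ccl24 lay at codon 19, where the search began, and may not be the defining pair. The XC pattern of Xcl1 was not searched for. The spacing is shown for the ligands that moved in opposite directions in the models and for Cxcl9, which fell in both. It is also shown for Cx3cl1, the only ligand with 3 residues between the cysteines. Each line gives coding sequence of the GENCODE M21 gene model (GRCm38), 5′ to 3′ on the strand of the gene, and capitals mark the cysteine codons.
Ccl2: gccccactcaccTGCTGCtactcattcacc
Ccl7: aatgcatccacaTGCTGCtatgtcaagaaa
Ccl11: atcccaacttccTGCTGCtttatcatgacc
Ccl12: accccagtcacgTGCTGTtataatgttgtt
Cxcl5: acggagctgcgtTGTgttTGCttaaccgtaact
Cxcl9: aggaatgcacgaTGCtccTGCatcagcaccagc
Cx3cl1: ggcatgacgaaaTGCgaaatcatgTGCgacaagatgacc
These windows lie at chr11:82036494-82036523, chr11:82046526-82046555, chr11:82061684-82061713, chr11:82102622-82102651 and chr5:90759715-90759747 on the plus strand, at chr5:92326830-92326862 on the minus strand and at chr8:94778039-94778077 on the plus strand, in the order of the lines. Ccl2, Ccl7, Ccl11, Ccl12 and Ccl8 are direct neighbours among the members on chromosome 11. Cxcl5 lies on chromosome 5 with Cxcl1, Cxcl2, Cxcl3 and Cxcl15, and 39 of the 57 genes lay in 11 clusters with no gap over 100 kb between neighbours.

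Per transcript length, Cxcl12 was the highest ligand over the 12 hearts with a mean of 42.3 FPKM, followed by Ccl6 with 39.3 and Ccl21a with 36.0 FPKM. Ccl9 followed at 13.4, Cxcl16 at 9.17 and Cxcl14 at 8.63 FPKM. Cxcl12 binds Cxcr4, Ccl6 and Ccl9 are Ccr1 ligands made by myeloid cells, and Ccl21a is the Ccr7 ligand of lymphatic vessels. In EIIa-ctl, Cxcl12 stood at 45.1 ± 2.81 FPKM (SD, n = 3) and Ccl6 at 9.35 ± 2.62, whereas in Myh6-tg Ccl6 reached 77.7 ± 23.6 FPKM and Cxcl12 30.6 ± 7.42. The order at the top was thus not the same in each group. Among receptors, Cxcr4 was highest with a mean of 5.60 FPKM, ahead of Cxcr6 with 3.62 and Ccr1 with 2.05 FPKM. Ccr2 and Cx3cr1 followed at 1.54 and 1.21 FPKM. Levels in FPKM are scaled to all fragments and were used here for ranking genes and describing groups, not for the main contrasts.

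**Figure D1:**
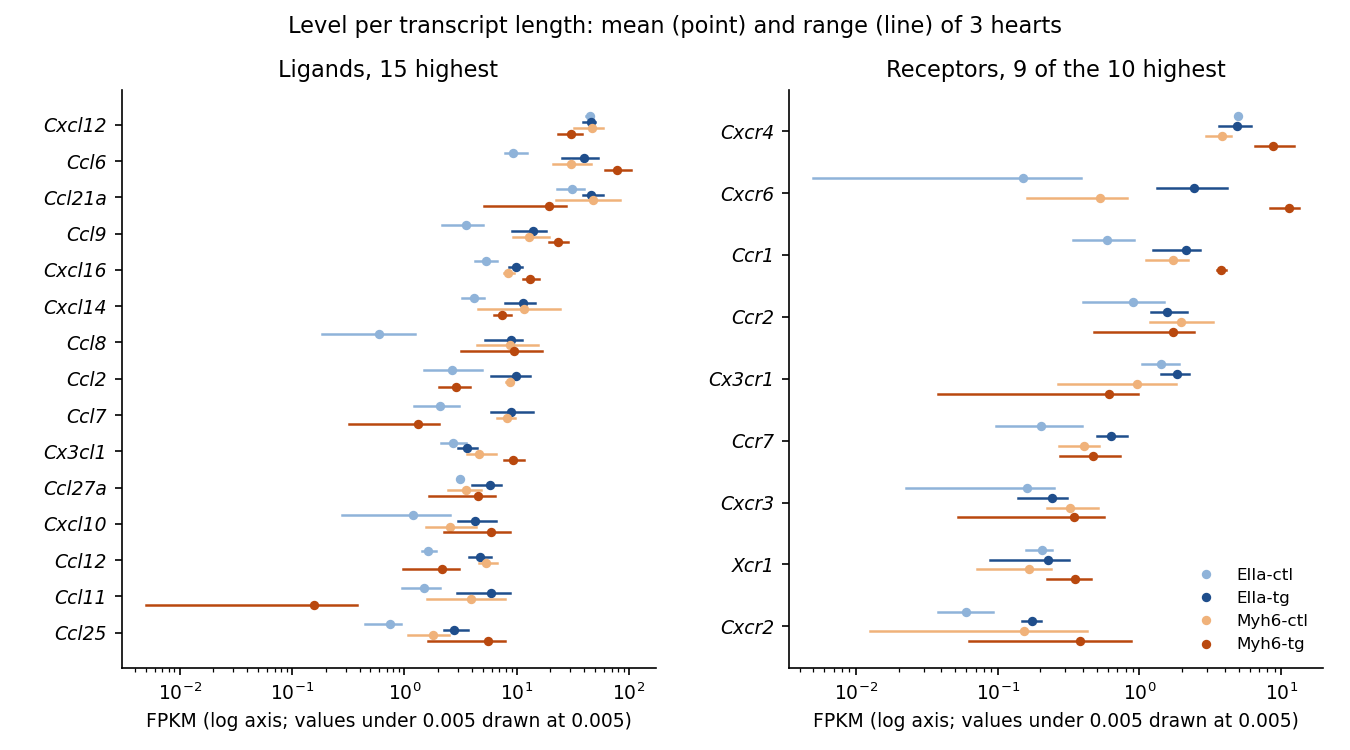
Level in FPKM on a log axis of the 15 highest ligands and of 9 of the 10 highest receptors, with the mean of 3 hearts as a point and their range as a line for each group. A line that runs far to the left ends in a heart at or near 0, as for Cxcr6 in EIIa-ctl and Ccl11 in Myh6-tg. Mean Cxcr6 was 0.150 FPKM in EIIa-ctl and 2.41 in EIIa-tg, and 0.529 FPKM in Myh6-ctl and 11.4 in Myh6-tg.

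The makeup of the family's reads differed between groups. Cxcl12 took 54.6 to 64.4% of the family's summed CPM in EIIa-ctl and 31.2 to 46.7% in EIIa-tg. In the second model it took 37.6 to 48.3% in Myh6-ctl and 17.0 to 28% in the hearts labelled Myh6-tg. Ccl6 and Ccl9 together took 5.43 to 8.62% in EIIa-ctl, 14.8 to 23.8% in EIIa-tg, 13.0 to 20.8% in Myh6-ctl and 29.2 to 48.0% in Myh6-tg. Neither share overlapped between control and transgenic hearts within a model. The remaining sum without Cxcl12 was 133 to 189 CPM in EIIa-ctl but 237 to 342 CPM in EIIa-tg, while Myh6-ctl with 254 to 337 CPM and Myh6-tg with 288 to 382 CPM overlapped.

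**Figure D2:**
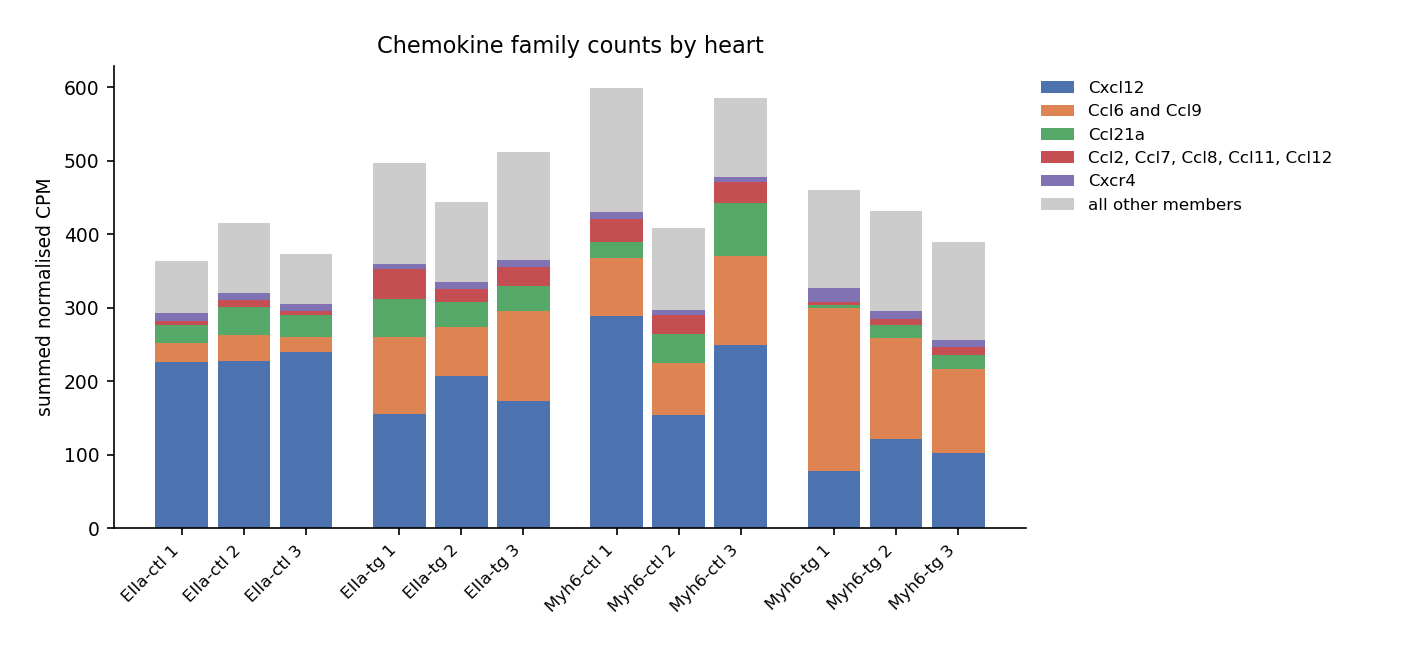
Summed normalised CPM of the 57 genes in each heart, split by gene group. Cxcl12 is the largest block in every control heart, and the Ccl6 and Ccl9 block is larger than it in each of the hearts labelled Myh6-tg.

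In EIIa-tg hearts at P30, 19 of the 38 members that could be tested differed from EIIa-ctl at an adjusted p under 0.05, 18 of them higher and 1, Cxcl9, lower. Over all genes tested, 17% passed, 8.65% higher and 8.3% lower. The median log2 fold change was 1.23 over the tested members and 0.02 over all genes. Only 24 of the 38 were above the expression filter in all 3 control hearts, and Ccl3 and Cxcl2 passed it through the transgenic hearts alone, so the count and the median lean towards genes that were higher there. In 22 members all EIIa-tg hearts lay above all EIIa-ctl hearts (20.3% of all genes) and in 2, Cxcl12 and Cxcl9, all lay below (20.8%). The calls rested on single libraries. Without EIIa-ctl 1, EIIa-ctl 3 or EIIa-tg 1, the edgeR test passed 0 members, and 0, 1 and 0 of all genes, with 20 to 26 members at an unadjusted p under 0.05 in each leave-one-out fit. Without EIIa-tg 3 it passed only Ccl6, without EIIa-ctl 2 it passed 18 members and without EIIa-tg 2 it passed 21. DESeq2 on all 6 hearts passed 23 of the 55 members it fitted, the 19 and also Ccr2, Cxcl10, Cxcl12 and Cxcl13, against 18.2% of 19490 genes. In what follows, to pass refers to edgeR unless DESeq2 is named. The stricter rule of the study, an adjusted p under 0.01 with a fold of at least 2, was met by 0 members and 0 of all genes with edgeR, and by 16 members and 4.29% of all genes with DESeq2. With edgeR 11 members met it without EIIa-tg 2 and 6 with no filter on low counts. Among the 26 members detected in all hearts, EIIa-ctl 2 was the highest of its group for 18 and EIIa-tg 2 the lowest of its group for 17.

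In the hearts labelled Myh6-tg at P90, 9 of 39 tested members differed from Myh6-ctl, against 18.3% of all genes. Cxcr6 and Cxcl13 were higher, where 8.96% of all genes were higher. Ccl2, Ccl7, Ccl11, Ccl12, Cxcl5, Cxcl9 and Cxcl12 were lower, where 9.38% of all genes were lower. All 3 Myh6-ctl hearts were above the expression filter in 33 of the 39, and Ccl17 passed it through the transgenic hearts alone. The median log2 fold change of the tested members was -0.21, against 0.03 over all genes. All Myh6-tg hearts lay above all Myh6-ctl hearts in 6 members (20.6% of all genes) and below them in 9 (19.6%). Ccl2, Cxcl9 and Cxcr6 also met the stricter rule, as did 3.97% of all genes, 1.92% higher and 2.05% lower. The stricter rule was met by 0 members in 5 of the 6 fits without 1 heart and by 5 without Myh6-tg 1, while the call of these 3 at an adjusted p under 0.05 held whichever heart was left out. DESeq2 passed 12 of 53 members, the 9 and among others Ccl6 and Ccl21a, against 19.3% of 20052 genes, and 10 members and 10.7% of all genes met the stricter rule with it. Without Myh6-ctl 1 only these 3 passed, without Myh6-ctl 2 or Myh6-ctl 3 there were 6, without Myh6-tg 1 10, without Myh6-tg 2 5 and without Myh6-tg 3 4.

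**Figure D3:**
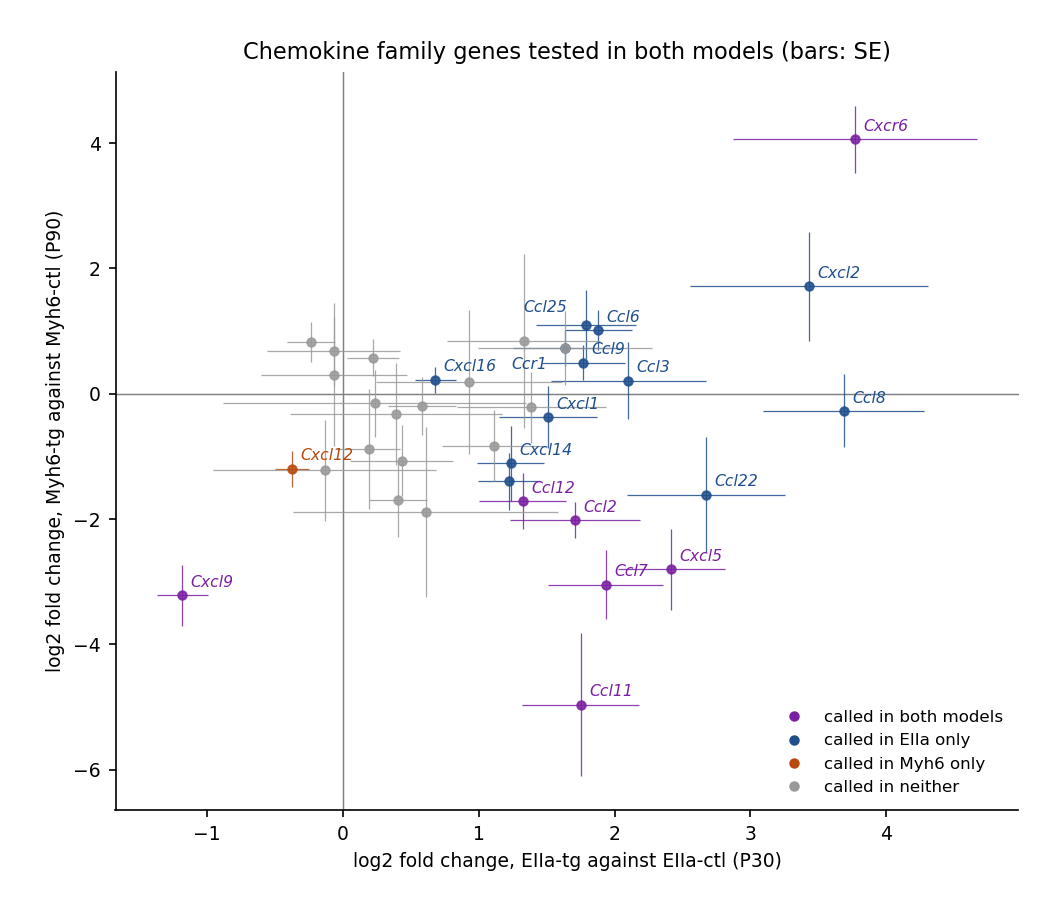
Log2 fold change in EIIa-tg (horizontal axis) against that in Myh6-tg (vertical axis) for the 37 members tested in both models, with bars of 1 SE and colours for the test at an adjusted p under 0.05. The lower right holds 19 genes above 0 in EIIa-tg and below 0 in Myh6-tg, and Cxcr6 stands alone at the upper right with 3.77 and 4.06.

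The models, which share no control hearts, were set against each other over the 37 members tested in both. The estimate was above 0 in EIIa-tg and below 0 in Myh6-tg for 19 of them, which was the case for 14.8% of all genes. It was above 0 in both for 12, below 0 in both for Cxcl12, Cxcl9 and Ccl4, and below 0 in EIIa-tg but above 0 in Myh6-tg for Cxcr4, Xcr1 and Cxcr5. Both models passed the test for 7 members, where 6.37% of all genes passed in both. Ccl2, Ccl7, Ccl11, Ccl12 and Cxcl5 rose in EIIa-tg and fell in Myh6-tg, a pattern met by 11 of the 14649 genes tested in both (0.0751%), so that 5 of those 11 were chemokines. Were the Myh6 labels exchanged, these 11 genes would be the ones higher in both models, and Cxcr6 and Cxcl9 would run in opposite directions. The others were Slc17a7, Gfra1, Enpp2, Coro1a, Ctsc and an unannotated locus. Cxcr6 rose in both, like 2.7% of all genes, and Cxcl9 fell in both, like 3.54%. The opposite pair of calls depended on the EIIa libraries named above, and it held for 0 members without EIIa-ctl 1, EIIa-ctl 3, EIIa-tg 1 or EIIa-tg 3. It held for 3 without EIIa-ctl 2, for 1 without Myh6-ctl 1, for 3 each without Myh6-ctl 2, Myh6-ctl 3 or Myh6-tg 2, and for 2 without Myh6-tg 3. All 12 hearts in 1 fit left Cxcl5 alone, a Y-linked covariate left 4 with Ccl2 lost, and the replicate number as a block left 0.

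The difference between the models was also tested directly, as the change in Myh6-tg minus the change in EIIa-tg. It passed for 8 of 42 members, all with the lower change in Myh6-tg, against 3.92% of all genes in either direction, 1.65% higher and 2.27% lower. Among these were Ccl2, Ccl7, Ccl8, Ccl11, Ccl12, Cxcl5 and Cxcl9. Without EIIa-ctl 1, EIIa-ctl 3 or EIIa-tg 1 the count was 5. Ccl2, Ccl7 and Cxcl5 met the stricter rule, like 0.622% of all genes, 0.283% higher and 0.339% lower. That count fell to 0 in 6 of the 12 fits without 1 heart, namely those without EIIa-ctl 1, EIIa-ctl 3, EIIa-tg 1, EIIa-tg 2, Myh6-tg 2 or Myh6-tg 3, was 6 without Myh6-tg 1 and 1 in the other 5, and it was 1 with the replicate block and 9 with DESeq2 (2.96% of all genes). Ccl2, Ccl7, Ccl11, Ccl12 and Cxcl5 passed in this test under all 21 alternatives run, including each of the 12 fits without 1 heart.

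Ccl2, Ccl7 and Ccl12 are Ccr2 ligands and attract monocytes. Ccl2 was at 1.43, 4.38 and 1.39 CPM in EIIa-ctl replicates 1 to 3 and at 10.8, 4.91 and 7.84 CPM in EIIa-tg. It was at 7.69, 9.32 and 6.89 CPM in Myh6-ctl and at 1.58, 1.82 and 2.48 CPM in Myh6-tg. Neither pair of groups overlapped, and the highest EIIa control, replicate 2, came close to the lowest EIIa-tg heart. The log2 fold change was 1.71 ± 0.48 (SE, n = 3 per group, adjusted p = 0.0450) in EIIa-tg and -2.02 ± 0.29 (adjusted p = 0.00582) in Myh6-tg, and the difference between the models was -3.73 ± 0.62 (adjusted p = 0.00954).

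Ccl7 stood at 1.14, 2.68 and 1.77 CPM in EIIa-ctl against 11.5, 4.85 and 5.12 CPM in EIIa-tg. In the other model it stood at 7.85, 6.65 and 7.53 CPM in Myh6-ctl against 0.256, 1.11 and 1.29 CPM in Myh6-tg. The groups were apart in both models, with EIIa-tg 1 the highest and Myh6-tg 1 the lowest of all hearts. On the log2 scale Ccl7 changed by 1.93 ± 0.42 (adjusted p = 0.0251) in EIIa-tg and by -3.05 ± 0.55 (adjusted p = 0.0117) in Myh6-tg, and the difference was -4.99 ± 0.75 (adjusted p = 0.00611). Without Myh6-ctl 1 the call in Myh6-tg was lost at an adjusted p of 0.0514.

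Ccl12 was at 0.911, 0.886 and 1.2 CPM in EIIa-ctl and at 3.28, 2.11 and 2.14 CPM in EIIa-tg. In Myh6-ctl it was at 2.94, 3.16 and 3.53 CPM, and in Myh6-tg at 0.491, 1.15 and 1.29 CPM. All EIIa-tg and Myh6-ctl hearts were above all EIIa-ctl and Myh6-tg hearts. The log2 fold changes were 1.32 ± 0.32 (adjusted p = 0.0311) and -1.71 ± 0.45 (adjusted p = 0.0364), and the difference was -3.04 ± 0.53 (adjusted p = 0.0112). The Myh6-tg call held in only 1 of the 6 leave-one-out fits, that without Myh6-tg 1.

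Summed over these Ccr2 ligands, the level was 3.48 to 7.95 CPM in EIIa-ctl hearts, 11.9 to 25.6 CPM in EIIa-tg, 18 to 19.1 CPM in Myh6-ctl and 2.33 to 5.05 CPM in hearts labelled Myh6-tg. The Myh6-ctl range lay within that of EIIa-tg, and the ranges of EIIa-ctl and Myh6-tg overlapped.

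Ccl11, or eotaxin, acts on Ccr3. It was at 2.69, 1.72 and 1.2 CPM in EIIa-ctl and at 9.54, 3.26 and 6.26 CPM in EIIa-tg. It was at 9.98, 2.12 and 2.51 CPM in Myh6-ctl, and in Myh6-tg it had 0 counts in replicate 1 and 0.369 and 0.0946 CPM in replicates 2 and 3. Both pairs were apart, although Myh6-ctl 1 alone was far above its group. The log2 fold changes were 1.75 ± 0.43 (adjusted p = 0.0322) and -4.96 ± 1.14 (adjusted p = 0.0240), with a difference of -6.73 ± 1.22 (adjusted p = 0.0120). The Myh6-tg call was lost without Myh6-ctl 1, Myh6-ctl 3 or Myh6-tg 3.

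Cxcl5 is a Cxcr2 ligand that attracts neutrophils. It was at 0.478, 0.860 and 0.761 CPM in EIIa-ctl, and at 4.07, 2.19 and 5.01 CPM in EIIa-tg. Myh6-ctl held 1.22, 3.63 and 1.04 CPM and Myh6-tg 0.256, 0.239 and 0.341 CPM. Neither pair overlapped, and Myh6-ctl 2 was highest in its group. The log2 fold changes were 2.42 ± 0.39 (adjusted p = 0.0166) and -2.80 ± 0.65 (adjusted p = 0.0242), with a difference of -5.22 ± 0.76 (adjusted p = 0.00529). The Myh6-tg call was lost without Myh6-ctl 1, Myh6-ctl 2, Myh6-tg 2 or Myh6-tg 3.

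**Figure D4:**
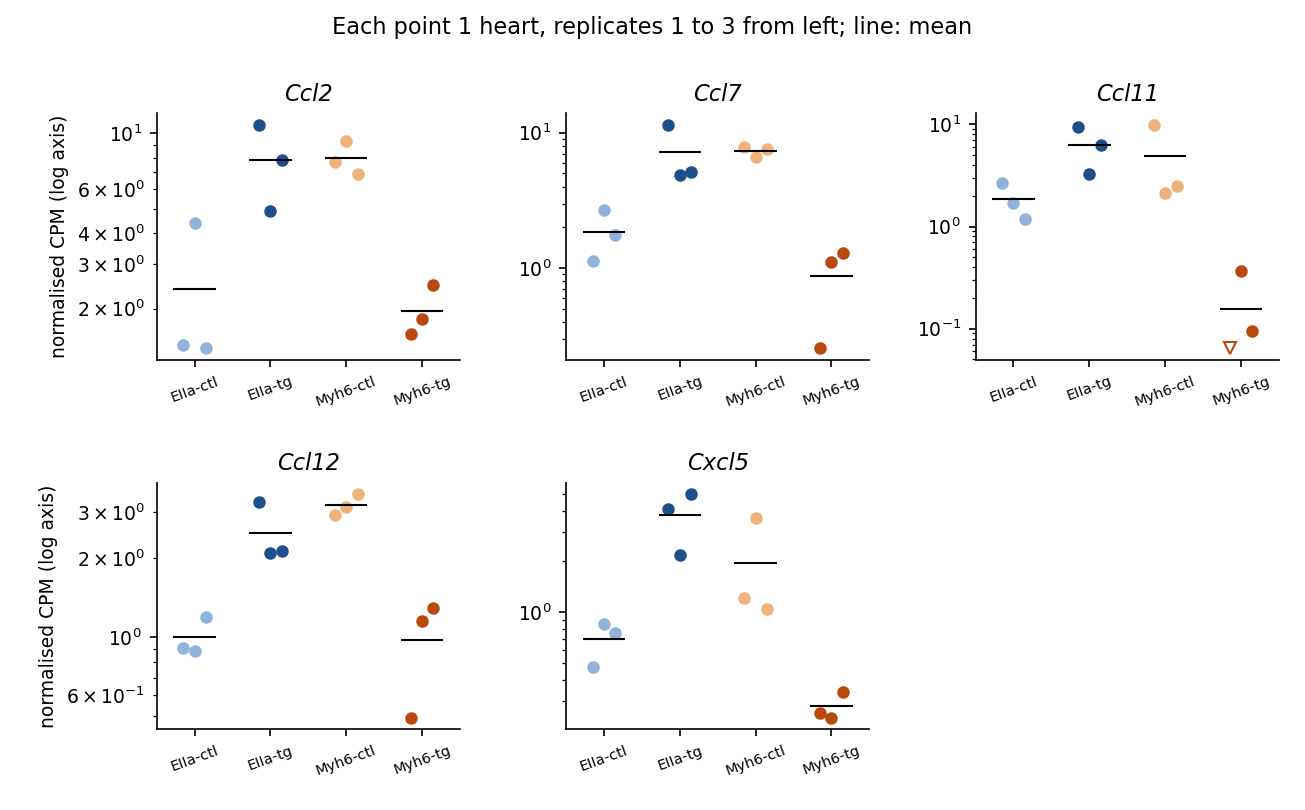
Normalised CPM on log axes in each of the 12 hearts for the 5 ligands called in opposite directions, with the group mean as a line. In every panel the EIIa-tg hearts lie above EIIa-ctl and the Myh6-tg hearts below Myh6-ctl; the open triangle is the Myh6-tg heart with 0 Ccl11 counts, drawn at the level of 3 counts.

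Promoters were looked up for the neighbours on chromosome 11 because Ccl2, Ccl7, Ccl11 and Ccl12 were called in the same directions in each model, while Ccl8 was called in EIIa-tg and not in Myh6-tg. Of the members, 43 had a promoter in the RefSeq table for GRCm38.p6, among them Ccl12 and Ccl8, and for Ccl2, Ccl7, Ccl11 and Cxcl5 none was read. The 250 bases before the start are shown 5′ to 3′ on the plus strand, at chr11:82101595-82101844 and chr11:82114935-82115184, with a TATAAA match in capitals.
Ccl12: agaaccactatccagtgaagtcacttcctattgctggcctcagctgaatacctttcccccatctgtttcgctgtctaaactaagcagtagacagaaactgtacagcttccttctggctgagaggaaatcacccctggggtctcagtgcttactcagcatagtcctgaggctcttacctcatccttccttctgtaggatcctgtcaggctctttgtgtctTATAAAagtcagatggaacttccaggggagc
Ccl8: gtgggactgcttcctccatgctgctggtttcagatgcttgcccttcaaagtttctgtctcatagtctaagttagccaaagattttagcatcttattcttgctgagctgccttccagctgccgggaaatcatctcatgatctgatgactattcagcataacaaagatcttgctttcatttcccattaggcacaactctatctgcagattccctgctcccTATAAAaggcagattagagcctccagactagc
The match begins 31 bases before the start in Ccl12 and 32 before it in Ccl8. TATAAA on either strand was present in 13 of the 50 promoters of members and in 12.4% of 32851 promoters of the same length. A match is a description of the letters, not evidence of a site in use.

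Ccl8, a monocyte attractant beside Ccl12 on the chromosome, was at 0.228, 0.704 and 0.109 CPM in EIIa-ctl and at 5.52, 2.74 and 5.28 CPM in EIIa-tg. It was at 2.67, 3.75 and 7.82 CPM in Myh6-ctl and at 1.56, 3.54 and 6.68 CPM in Myh6-tg. The EIIa groups were apart and the Myh6 groups overlapped almost wholly. The log2 fold change was 3.69 ± 0.59 (adjusted p = 0.0166) in EIIa-tg and -0.27 ± 0.58 (adjusted p = 0.784) in Myh6-tg. The difference of -3.97 ± 0.94 passed (adjusted p = 0.0358) but was not called in 8 of the 12 fits without 1 heart: those without EIIa-ctl 1, EIIa-ctl 3, any EIIa-tg heart, Myh6-ctl 2, Myh6-ctl 3 or Myh6-tg 2. It was not called with limma on log2(FPKM + 1) either.

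Cxcr6, the receptor of the membrane-bound ligand Cxcl16 and a marker of resident T and NKT cells, rose in both models. It was at 0.159, 0.808 and 0 CPM in EIIa-ctl and at 3.40, 2.64 and 7.31 CPM in EIIa-tg. It was at 0.362, 1.45 and 1.54 CPM in Myh6-ctl and at 22.4, 21.4 and 12.4 CPM in Myh6-tg. No control heart of either model reached any transgenic heart, and the Myh6-tg hearts were the 3 highest of all 12. The log2 fold change was 3.77 ± 0.90 (adjusted p = 0.0307) in EIIa-tg and 4.06 ± 0.54 (adjusted p = 0.00487) in Myh6-tg, and the difference of 0.28 ± 1.14 was not resolved (adjusted p = 0.926).

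T cell markers, 9 genes including Cd3d, Cd3e and Cd8a, were set beside Cxcr6. None passed the edgeR test in either model, with 1 at an unadjusted p under 0.05 in each, Cd28, which DESeq2 passed in Myh6-tg. Their summed level was 7.74 to 9.45 CPM in EIIa-ctl hearts, 5.57 to 9.0 in EIIa-tg, 7.01 to 11.6 in Myh6-ctl and 5.64 to 6.0 in Myh6-tg. Of 8 NK and cytotoxic cell markers, none passed with edgeR or DESeq2 and 1 had an unadjusted p under 0.05 in EIIa-tg (0 in Myh6-tg), with sums of 1.21 to 2.04 CPM in EIIa-ctl hearts, 2.47 to 4.05 in EIIa-tg, 1.11 to 4.25 in Myh6-ctl and 0.918 to 1.61 in Myh6-tg. The sum over NK markers was higher in EIIa-tg without overlap, and its part in the Cxcr6 result was not tested. The ligand Cxcl16 was at 13.3, 19.1 and 14.6 CPM in EIIa-ctl and at 25, 23.1 and 27.4 CPM in EIIa-tg, a rise of 0.68 ± 0.15 on the log2 scale (adjusted p = 0.0261). In Myh6-ctl it was at 25.6, 25.1 and 25.1 CPM and in Myh6-tg at 38.2, 26.2 and 24 CPM, and the change of 0.22 ± 0.21 did not pass (adjusted p = 0.496). The groups overlapped there, so that in Myh6-tg the receptor moved and the ligand was not resolved. The difference between the models was not called for Cxcl16 (adjusted p = 0.374). Exons of Cxcl16 overlap Zmynd15 on the other strand by 552 bases, and reads of the pair could not be separated.

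Cxcl9, an interferon-induced Cxcr3 ligand, fell in both models. It was at 13.4, 15.5 and 11.6 CPM in EIIa-ctl and at 5.99, 7.15 and 4.70 CPM in EIIa-tg, and at 15, 8.93 and 5.05 CPM in Myh6-ctl and at 0.875, 1.48 and 0.757 CPM in Myh6-tg. The transgenic hearts lay below their controls in both models, and the Myh6-tg hearts were the lowest of all. The log2 fold change was -1.18 ± 0.19 (adjusted p = 0.0166) in EIIa-tg and -3.22 ± 0.48 (adjusted p = 0.00681) in Myh6-tg. The difference of -2.04 ± 0.51 passed (adjusted p = 0.0476) but held in only 3 of the 12 fits without 1 heart, those without Myh6-ctl 3, Myh6-tg 1 or Myh6-tg 2, and was lost with a Y-linked covariate and with limma on FPKM. Cxcl10, the other tested Cxcr3 ligand, did not pass with edgeR in either model, as it changed by 1.63 ± 0.64 (log2, adjusted p = 0.111) in EIIa-tg and 0.73 ± 0.59 (adjusted p = 0.425) in Myh6-tg, and Cxcl11 stayed at 10 counts or fewer in every heart. All EIIa-tg hearts were above all EIIa-ctl hearts for Cxcl10, and DESeq2 passed it there (adjusted p = 0.0321).

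The Cxcl9 promoter is shown because Cxcl9 passed in both models. The 250 bases before the start are given 5′ to 3′ along the gene, on the minus strand at chr5:92328080-92328329, with TATAAA and a match to the kappa-B-like motif, the core of sites bound by NF-kB, in capitals.
Cxcl9: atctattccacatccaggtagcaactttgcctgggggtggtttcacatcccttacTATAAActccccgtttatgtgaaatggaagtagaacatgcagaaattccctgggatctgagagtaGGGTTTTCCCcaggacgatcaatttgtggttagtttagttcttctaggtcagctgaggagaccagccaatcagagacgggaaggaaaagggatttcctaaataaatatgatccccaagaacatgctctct
The kappa-B-like motif reads GGG, any 2 bases, TT, any base and CC. Its match begins 130 bases and the TATAAA match 195 bases before the start. On either strand it occurred in 10 of 50 promoters of members, those of Ccl9, Ccl19, Ccl20, Ccr3, Ccr6, Cxcl1, Cxcl2, Cxcl3, Cxcl9 and Cxcl10, and in 4.11% of all promoters. The core of interferon response elements, GAAA, any 2 bases and GAAA, occurred in 3, those of Ccl19, Cxcl10 and Cxcl14, and in 2.98% of all promoters. Of the genes with the first motif, Ccl9, Cxcl1 and Cxcl2 passed as higher in EIIa-tg and Cxcl9 as lower. The part of either motif in these changes was not tested.

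Cxcl12 was at 227, 227 and 240 CPM in EIIa-ctl and at 155, 207 and 174 CPM in EIIa-tg. It was at 289, 153 and 248 CPM in Myh6-ctl and at 78.1, 121 and 102 CPM in Myh6-tg. Every transgenic heart was below all of its controls in CPM. In FPKM the groups overlapped in both models. Cxcl12 was at 41.8 to 46.9 FPKM in EIIa-ctl and at 38.7 to 50.3 in EIIa-tg. It was at 32.4 to 58.1 FPKM in Myh6-ctl and at 23.2 to 38.0 in Myh6-tg. The change of -0.37 ± 0.12 in EIIa-tg did not pass with edgeR (adjusted p = 0.0693) but did with DESeq2 (adjusted p = 0.0269), while that of -1.20 ± 0.28 in Myh6-tg did (adjusted p = 0.0267), and the difference of -0.83 ± 0.32 was not called (adjusted p = 0.178). The Myh6-tg call was lost without Myh6-ctl 1, Myh6-ctl 3, Myh6-tg 2 or Myh6-tg 3, and with limma on FPKM, where the estimate was as small as -0.60 and the adjusted p as high as 0.124. Its receptor Cxcr4 was at 10.5, 9.56 and 9.30 CPM in EIIa-ctl and at 6.31, 8.86 and 9.78 CPM in EIIa-tg, and at 8.62, 6.58 and 6.96 CPM in Myh6-ctl and at 19.7, 10.9 and 8.78 CPM in Myh6-tg. The Myh6 groups did not overlap, but Myh6-tg 3 was only just above Myh6-ctl 1, and the log2 fold change of 0.83 ± 0.32 did not pass (adjusted p = 0.113).

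**Figure D5:**
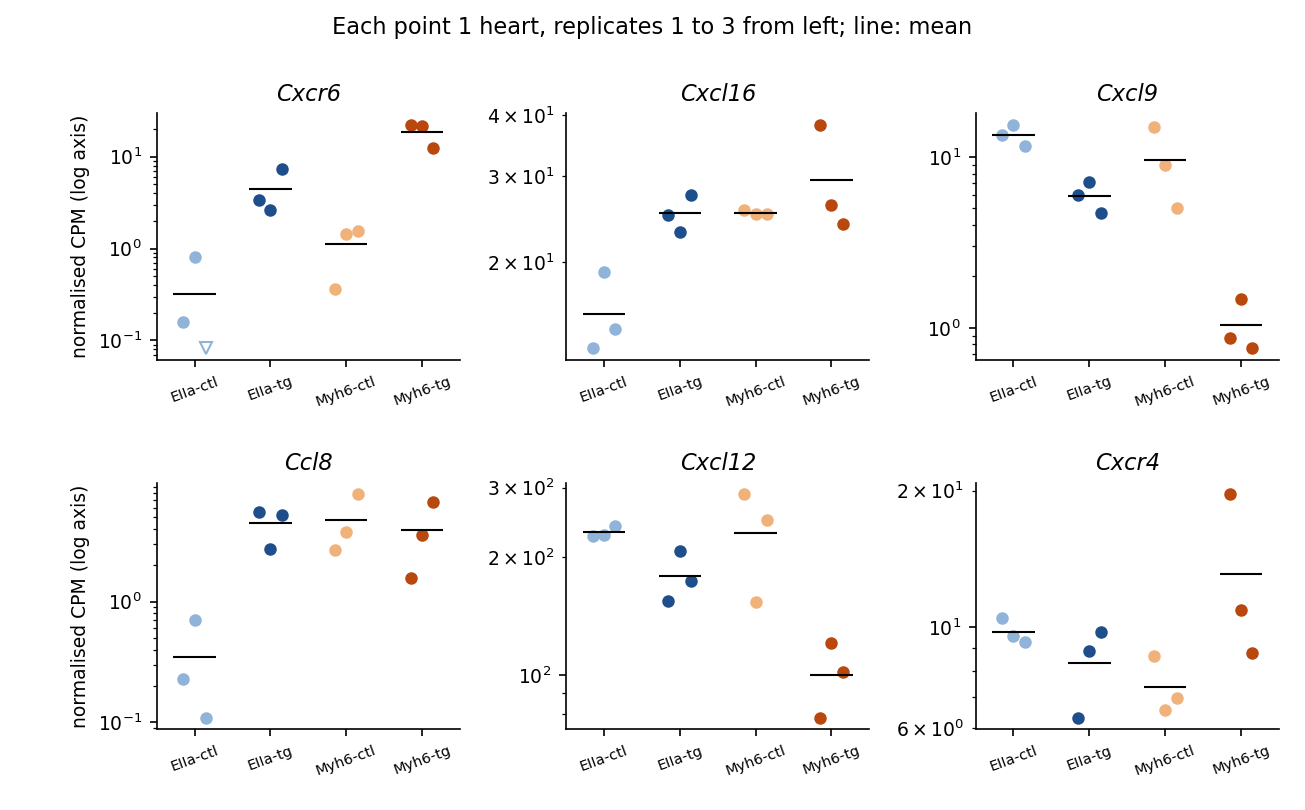
Normalised CPM on log axes in each of the 12 hearts for 2 ligand-receptor pairs (Cxcl16 with Cxcr6, Cxcl12 with Cxcr4), Cxcl9 and Ccl8, with group means as lines. Cxcr6 is higher and Cxcl9 lower in all transgenic hearts of both models, and Ccl8 is higher in all EIIa-tg hearts while its Myh6 groups overlap; the open triangle is the EIIa-ctl heart with 0 Cxcr6 counts, drawn at the level of 3 counts.

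Ccl6 and Ccl9, myeloid ligands of Ccr1, were among the most abundant members. Ccl6 was at 13.3, 19.4 and 12.9 CPM in EIIa-ctl hearts, 60.3, 37.7 and 70.6 CPM in EIIa-tg, 42.3, 37.2 and 64.6 CPM in Myh6-ctl and at 141, 82.3 and 68.5 CPM in Myh6-tg. Ccl9 was at 12.3, 16.5 and 7.39 CPM in EIIa-ctl hearts, 44.6, 28 and 51.3 CPM in EIIa-tg, 35.6, 34.6 and 57.4 CPM in Myh6-ctl and at 79.9, 54.9 and 45.5 CPM in Myh6-tg. In EIIa-tg both were above every control, by 1.88 ± 0.25 on the log2 scale for Ccl6 (adjusted p = 0.0135) and by 1.77 ± 0.31 for Ccl9 (adjusted p = 0.0168). In Myh6-tg the estimates of 1.02 ± 0.32 (adjusted p = 0.0654) and 0.50 ± 0.28 (adjusted p = 0.257) did not pass with edgeR, DESeq2 passed Ccl6 (adjusted p = 0.0169), and the Ccl9 groups overlapped. Their receptor Ccr1 was at 1.75, 2.84 and 1.11 CPM in EIIa-ctl hearts, 7.20, 3.64 and 7.04 CPM in EIIa-tg, 7.31, 3.94 and 5.26 CPM in Myh6-ctl and at 10.8, 8.40 and 8.08 CPM in Myh6-tg. Its change was 1.64 ± 0.39 (adjusted p = 0.0300) in EIIa-tg and 0.73 ± 0.28 (adjusted p = 0.115) in Myh6-tg. The difference between the models was not called for Ccl6 (adjusted p = 0.313), Ccl9 (0.149) or Ccr1 (0.356).

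Of the other Cxcr2 ligands, Cxcl1 and Cxcl2 rose in EIIa-tg and Cxcl3 was too low to test. Cxcl1 was at 1.12, 1.49 and 1.17 CPM in EIIa-ctl and at 5.42, 2.26 and 3.12 CPM in EIIa-tg, with no overlap and a log2 fold change of 1.51 ± 0.36 (adjusted p = 0.0307). Cxcl2 was near the detection limit in EIIa-ctl, with 0.0911, 0 and 0.0544 CPM, and was at 0.542, 0.318 and 0.846 CPM in EIIa-tg (3.43 ± 0.88, adjusted p = 0.0360). The Cxcl2 call held in 1 of 6 fits without 1 heart, that without EIIa-tg 2, and was lost with no filter, the Y-linked covariate and limma on log2(FPKM + 1). Neither passed in Myh6-tg, where Cxcl1 changed by -0.37 ± 0.49 (adjusted p = 0.642). In that model Cxcl2 was at 0.362, 0.363 and 0.550 CPM in the controls and at 3.31, 0.434 and 0.492 CPM in Myh6-tg, so that a single heart carried the estimate of 1.72 ± 0.87 (adjusted p = 0.206). The difference between the models was not called for Cxcl1 (adjusted p = 0.125) or Cxcl2 (0.512). Their receptor Cxcr2 was at 1.54, 0.0518 and 0.0949 CPM in Myh6-ctl and at 2.50, 0.391 and 0.151 CPM in Myh6-tg, high in replicate 1 of either group. Summed neutrophil markers were high in the same hearts, at 16.8 CPM in Myh6-ctl 1 and at 21.8 CPM in Myh6-tg 1 against 2.56 to 3.02 and 7.65 to 8.59 CPM in the others of each group, and their part in these values was not tested.

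Further ligands passed in EIIa-tg and not in Myh6-tg. For none of them was the difference between the models called with edgeR, at an adjusted p of 0.0992 for Cxcl14, 0.632 for Ccl25 and 0.243 for Ccl3. DESeq2 passed the difference for Cxcl14 (-2.35, adjusted p = 0.0130) and for Ccl22 (-4.31, adjusted p = 0.00441). Cxcl14, a homeostatic chemokine, was at 11, 8.03 and 6.77 CPM in EIIa-ctl and at 26.9, 14.7 and 19.6 CPM in EIIa-tg (1.23 ± 0.25, adjusted p = 0.0217). In Myh6-ctl it was at 51.5, 10.4 and 10.9 CPM and in Myh6-tg at 12.1, 9.72 and 12 CPM, where replicate 1 of the controls stood alone and the change of -1.11 ± 0.60 did not pass (adjusted p = 0.233). Ccl22, a Ccr4 ligand of dendritic cells and macrophages, was at 0.0911, 0.417 and 0.163 CPM in EIIa-ctl and at 1.41, 1.21 and 1.69 CPM in EIIa-tg (2.67 ± 0.58, adjusted p = 0.0247), and at 0.566, 1.89 and 1.21 CPM in Myh6-ctl and at 0.0427, 0.391 and 0.757 CPM in Myh6-tg. Its estimate in Myh6-tg was -1.61 ± 0.92 (adjusted p = 0.260), and the difference of -4.28 ± 1.17 was not called (adjusted p = 0.0656) but passed with the replicate number as a block (-4.73, adjusted p = 0.0383). Ccl25, a Ccr9 ligand, was at 1.00, 0.808 and 0.544 CPM in EIIa-ctl and at 1.97, 2.58 and 3.65 CPM in EIIa-tg (1.79 ± 0.37, adjusted p = 0.0225), and its exons overlap Elavl1 on the other strand by 181 bases. In Myh6-ctl it was at 1.36, 2.49 and 2.62 CPM and in Myh6-tg at 1.56, 5.97 and 6.34 CPM, which did not pass (1.10 ± 0.55, adjusted p = 0.201). Ccl3, a Ccr1 ligand of activated macrophages, was at 0.137, 0.130 and 0.245 CPM in EIIa-ctl and at 0.937, 0.834 and 0.445 CPM in EIIa-tg (2.10 ± 0.57, adjusted p = 0.0417). The 2.10 rests on few counts, with at most 42 in any heart, and the call was lost in all 6 fits without 1 heart (adjusted p 0.0757 to 0.142), with no filter and with the Y-linked covariate. In Myh6 the groups overlapped. Ccl4 and Ccl5, CC ligands of the same kind, did not pass in either model.

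Cxcl13, the B cell attractant that binds Cxcr5, passed in Myh6-tg. It was at 0.362, 0.621 and 0.816 CPM in Myh6-ctl and at 1.79, 3.78 and 4.79 CPM in Myh6-tg, with no overlap, and its change was 2.52 ± 0.53 (log2, adjusted p = 0.0178). The call was lost without Myh6-ctl 1, Myh6-ctl 2, Myh6-tg 2 or Myh6-tg 3. In the EIIa hearts it was too low to test, at 0, 0 and 0.0815 CPM in controls and 0.345, 0.139 and 0.690 CPM in EIIa-tg, which were again apart. Cxcr5 was below 0.5 CPM in every heart, and of 6 B cell markers none rose in the hearts labelled Myh6-tg and Ms4a1 fell.

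Ccl21a, which guides Ccr7-bearing dendritic cells and T cells into lymphatics, was at 23.4, 37.3 and 29.8 CPM in EIIa-ctl and at 52.1, 34.9 and 33.3 CPM in EIIa-tg, where the groups overlapped. In Myh6-ctl it was at 22.7, 39.5 and 71.7 CPM and in Myh6-tg at 4.21, 18.7 and 18.6 CPM, all below the controls. Neither the change of 0.41 ± 0.21 (log2, adjusted p = 0.215) nor that of -1.69 ± 0.60 (adjusted p = 0.0898) passed with edgeR, but DESeq2 passed the latter (adjusted p = 0.00766), and in the blocked fit it was -1.81 (adjusted p = 0.00891). Of the 75-base stretches of Ccl21a, 61.3% also occur in Ccl21b or unnamed copies, as do all of those of Ccl21b, so that the counting may have split their reads. Ccr7 was at 0.245 to 1.51 CPM and did not pass in either model.

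Among the remaining receptors, Ccr2, the monocyte receptor for Ccl2, Ccl7 and Ccl12, was at 1.66, 5.58 and 3.04 CPM in EIIa-ctl and at 7.32, 6.42 and 8.51 CPM in EIIa-tg, apart but not called (1.11 ± 0.38, adjusted p = 0.0765), though DESeq2 passed it (adjusted p = 0.0219). It was at 7.44, 8.70 and 14.6 CPM in Myh6-ctl and at 1.62, 8.33 and 7.34 CPM in Myh6-tg (-0.83 ± 0.56, adjusted p = 0.340), with Myh6-tg 1 alone well below. Myh6-tg 1 was also the lowest of the 12 hearts for Cx3cr1, the fractalkine receptor of resident macrophages and monocytes, at 0.171 CPM against 3.08 and 3.44 CPM in the other hearts of its group. Cx3cr1 changed by 0.19 ± 0.23 (adjusted p = 0.603) in EIIa-tg and -0.89 ± 0.96 (adjusted p = 0.557) in Myh6-tg. Its ligand Cx3cl1 was at 8.07 to 12.7 CPM in EIIa-ctl hearts, 10.3 to 13.8 in EIIa-tg, 11.7 to 25.3 in Myh6-ctl and 21.8 to 29.9 in Myh6-tg, without a call. Xcr1, the receptor of cross-presenting dendritic cells, and Cxcr3, the receptor of Cxcl9 and Cxcl10, were below 2 CPM in every heart and changed by no more than their error in EIIa-tg or by an amount that did not pass in Myh6-tg.

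The tested members not yet described, Ccl24, Ccl27a, Ccl28, Ccl19 and Ccl17, lay between 0 and 4.43 CPM and none passed in a model. Counts of 24 or fewer per heart were found for 14 detected members that were too low to test in either model, among them the receptors Ccr3, Ccr4, Ccr6, Ccr8, Ccr9 and Ccr10 and the ligands Ccl1, Ccl20, Cxcl3 and Xcl1. Ccl26 and Cxcl15 had no count and Ccl27b at most 2, which is not detectable at this depth rather than absent. Ccr3, the receptor of Ccl11, had at most 17 counts in any heart.

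Myeloid markers moved with the EIIa result. For the counts of markers that follow, 8.65% of all genes rose and 8.3% fell in EIIa-tg, and 8.96% rose and 9.38% fell in Myh6-tg. Of 12 macrophage markers, 11 rose in EIIa-tg, among them Adgre1, Cd68, Csf1r and Mrc1, and their summed level was 313 to 459 CPM in EIIa-ctl but 608 to 825 CPM in EIIa-tg. None passed in Myh6-tg with edgeR, where 5 had an unadjusted p under 0.05, while DESeq2 passed Cd14, Cd68 and Cd163. The sum was 578 to 810 CPM in Myh6-ctl against 788 to 1635 CPM in Myh6-tg, so in the model in which the Ccr2 ligands fell, 2 of 3 transgenic hearts were above every control in these markers. Adgre1, the F4/80 macrophage antigen, was the only one of these markers whose change differed between the models (-1.64 ± 0.37, adjusted p = 0.0289). Fibroblast markers, of which 2 of 6 rose in EIIa-tg and 3 of 6 in Myh6-tg, summed to 1327 to 1871 CPM in EIIa-ctl hearts, 2368 to 3445 in EIIa-tg, 1764 to 2117 in Myh6-ctl and 2492 to 5907 in Myh6-tg, and Pdgfra rose in both models. Cardiomyocyte markers fell in part, 2 of 8 in EIIa-tg and 5 of 8 in Myh6-tg. Endothelial markers fell for 3 of 6 genes in EIIa-tg, and in Myh6-tg 0 passed with edgeR (3 at an unadjusted p under 0.05) and 3 with DESeq2. Neutrophil markers summed to 2.00 to 2.45 CPM in EIIa-ctl and 5.09 to 6.64 in EIIa-tg, where S100a9 and Csf3r rose. Dendritic cell markers summed to 27.9 to 38.1 CPM over Myh6-ctl hearts and 17.8 to 21.1 over Myh6-tg. Erythroid markers had lower sums in the transgenic hearts of both models, at 1543 to 2608 CPM in EIIa-ctl, 198 to 1270 in EIIa-tg, 5220 to 8148 in Myh6-ctl and 1866 to 3450 in Myh6-tg. The part of these lists and of the mitochondrial share in the chemokine changes was not tested. Markers of thymocytes and lung epithelium summed to at most 0.624 and 0.104 CPM.

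Genes that control chemokine transcription were counted from a list of 25, of which 19 could be tested. In EIIa-tg, 5 rose, namely Nfkb2 and Relb of the noncanonical NF-kB pathway, Irf7, Myd88 and Fos, and Csf1 fell. In Myh6-tg, Tgfb1 and Fos rose and Irf1 was among 2 that fell. Over all genes, 8.65% rose and 8.3% fell in EIIa-tg, and 8.96% rose and 9.38% fell in Myh6-tg. Nfkb2 differed between the models, with 1.05 ± 0.16 (adjusted p = 0.0160) in EIIa-tg, 0.07 ± 0.18 (adjusted p = 0.834) in Myh6-tg and a difference of -0.99 ± 0.24 (adjusted p = 0.0454). Tnf and Il1b, inducers of Ccl2 and Cxcl1, did not pass with edgeR in either model, while DESeq2 passed Il1b in Myh6-tg, and Ifng had no count in any heart.

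Of 30 signalling genes downstream of chemokine receptors, 4 rose in EIIa-tg, where 8.65% of all genes rose. Among them were the leukocyte integrin chain Itgb2, Pik3r5 and the arrestin Arrb2. In EIIa-tg 13 had an unadjusted p under 0.05 with edgeR, and DESeq2 passed 9. Only Grk3, a kinase that desensitises chemokine receptors, rose in Myh6-tg, where 8.96% of all genes rose. There 5 had an unadjusted p under 0.05 with edgeR, and DESeq2 passed 2. The summed level of the 30 genes was 1103 to 1190 CPM in EIIa-ctl and 1216 to 1283 in EIIa-tg. It was 1190 to 1293 CPM in Myh6-ctl and 1457 to 1631 in Myh6-tg, without overlap in either model. Of 9 chemokine-related genes outside the symbol rule, 1 passed in each model, against 17% of all genes in EIIa-tg and 18.3% in Myh6-tg. The platelet chemokine Pf4 rose in EIIa-tg (0.84 ± 0.17, adjusted p = 0.0221), and Ppbp, a Cxcr2 ligand of platelets, fell in Myh6-tg (-2.39 ± 0.65, adjusted p = 0.0407). The scavenging receptor Ackr3, which binds Cxcl12, was at 94.8 ± 9.34 CPM in EIIa-ctl and at 94.4 ± 6.63 CPM in EIIa-tg, and at 96.7 ± 15 CPM in Myh6-ctl and at 74.3 ± 15.8 CPM in Myh6-tg, and did not pass in either.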

How the data were processed

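The authors sequenced NEBNext Ultra libraries as 150-base paired reads, mapped them to GRCm38 with HISAT2 and deposited a table of raw counts and one of FPKM per gene. The submitters' processing notes list HISAT2 2.0.4, StringTie 2.2.1 and DESeq2, and name GRCm39 and mm10 as builds; the counting program and its use of strand are not given in the sources used here. Loci numbered 25171, of which 3135 were unannotated. The members, gene lists and tests were chosen with earlier results of these data known.

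Counts were tested in R 4.3.3 with edgeR 4.0.16 (filterByExpr, TMM, quasi-likelihood test, Benjamini-Hochberg adjustment over all genes tested), separately for the 6 hearts of each model, and over all 12 hearts for the difference between models. A call is an adjusted p under 0.05; the study's own rule was an adjusted p under 0.01 with a fold of at least 2. Standard errors were derived from the F statistic. CPM uses TMM-scaled libraries over the 12 hearts. A gene was detected at 3 counts or more in a heart. DESeq2 1.42.0 on the counts and limma 3.58.1 on log2(FPKM + 1) and log2(FPKM + 0.1) of the deposited FPKM were alternatives, as were RLE factors, no filter, a CPM minimum of 1 in 3 hearts, mitochondrial genes left out, a Y-linked covariate, all 12 hearts in 1 fit, the replicate number as a block, and each heart left out. The FPKM values were otherwise used to rank levels between genes and to describe levels by group.

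Every member with a call, and the 5 most abundant ligands and receptors, were given by heart, and other members by range; of the other lists, genes called in both models were named first, and further called genes were named after their values were seen. In Myh6, same-numbered hearts deviated together (r = 0.285, 0.184 and 0.173 across genes). The folds, standard errors and adjusted p given for Myh6 come from the fit without pairs, and the blocked value is added where it changes a call. The titles, not the genotype labels, set the groups of EIIa-tg 2 and 3. The labels do not say that replicates came from separate litters, and p-values measure the spread between these hearts. Motif letters were searched on both strands. In simulated counts with 200 changed genes, the test recovered 94% of those changed by 3 on the log2 scale and 82% of those changed by 2 in EIIa (14908 genes), 79% and 75% in Myh6 (15298 genes), and 73% and 50% for the difference (15929 genes). It also called 16 unchanged genes in EIIa, 9 in Myh6 and 10 for the difference. The simulated hearts had no Y-linked or paired structure and fewer changed genes than were called in the data. These shares therefore do not give the power of the tests on the real hearts. The transgene was not analysed here, and some genes within the counts are not reported here by name.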

Additional observations from a re-analysis of the deposited data

Results flagged for a closer look

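For 7 ligands the change in the hearts labelled Myh6-tg differed from that in EIIa-tg hearts by a test of the difference itself. On the log2 scale, as Myh6-tg minus EIIa-tg, the differences were -6.73 for Ccl11, -5.22 for Cxcl5, -4.99 for Ccl7, -3.97 for Ccl8, -3.73 for Ccl2, -3.04 for Ccl12 and -2.04 for Cxcl9. The change in EIIa-tg was upward for all of these but Cxcl9, which was lower in both models. In the 12 fits without 1 heart, the call held in only 4 for Ccl8 and 3 for Cxcl9, and in all 12 for the others. These differences refer to the Myh6 hearts as labelled. Were those labels exchanged, Ccl2, Ccl7, Ccl11, Ccl12 and Cxcl5 would be higher in both models. Age, the Cre driver and tamoxifen differ between the models and cannot be told apart from the site of expression.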

How the results depend on the processing

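The count of called members was 19 in EIIa-tg, 9 in Myh6-tg and 8 for the difference. With the rule of an adjusted p under 0.01 and a fold of at least 2, edgeR gave 0 (0 of all genes, 25 members at an unadjusted p under 0.05), 3 and 3, while DESeq2 gave 16, 10 and 9. All 12 hearts in 1 fit gave 4 in EIIa-tg. Leaving out 1 heart gave 0 to 21 in EIIa-tg, 3 to 10 in Myh6-tg and 5 to 9 for the difference. The other alternatives ranged from 16 to 23, 9 to 13 and 8 to 11. No estimate of a called gene reversed. On the FPKM scale the median of all genes shifted by 0.13 to 0.20 (log2) in EIIa-tg and 0.26 to 0.41 in Myh6-tg, so FPKM folds are to be read relative to that shift.

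With the replicate number as a block, EIIa-tg gave 0 called members, with adjusted p from 0.0631 to 0.116 for those called without it. Across genes, same-numbered EIIa hearts did not deviate together (r = 0.0602, -0.0704 and -0.0500). The numbers are still not names only, since replicate 1 alone held Y-linked counts, 4733 in EIIa-ctl and 4224 in EIIa-tg. These correlations therefore cannot decide whether the EIIa hearts share structure by number, and the loss of the EIIa-tg calls with the block stands. The block gave 10 in Myh6-tg and 9 for the difference and lost no call there.

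Calls in EIIa-tg lie close to the threshold (lowest adjusted p of a member 0.0135), so that their number turns on single hearts, while estimates kept their sign. Members under about 1 CPM rest on few counts, where differences were often not detectable. DESeq2 gave no adjusted p for 11, 6 and 12 members in the 3 comparisons.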
